A study of Rattus norvegicus with 12 samples.

Results

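The genes described here are 9 regulators known to respond to glucocorticoids: Klf9, Klf15, Fkbp5, Tsc22d3, Tsc22d1, Sgk1, Errfi1, Zbtb16 and Nfkbia. Every array probe set annotated to exactly 1 of these symbols was taken, which gave 10 of the 15866 probe sets tested, for 8 of the 10411 named genes. Klf9 had 3 probe sets and the other 7 genes had 1 each. No probe set carried Zbtb16 as its single symbol, so no value is given for that gene. The list was drawn up with the group differences of these same arrays in view. Differences between the groups are therefore given as a description, with their errors and with no test of the members.

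RNA was measured in whole liver of 12 male Brown Norway rats, an inbred strain, with 1 Affymetrix array per rat. The 4 control rats received water, and the 8 treated rats received D-penicillamine dissolved in tap water at 150 mg/kg in 1 mL, as 1 oral gavage. All rats weighed 150 to 170 g and were killed 6 h after dosing. D-penicillamine is a thiol drug that binds copper, and repeated dosing is known to cause an autoimmune reaction in some rats of this strain. The comparison concerns the liver's early response to 1 dose. No glucocorticoid was given, and no hormone level is among the values used here, so the grouping of these genes rests on what is known of them elsewhere.

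Glucocorticoids are steroid hormones of the adrenal cortex that follow the daily cycle and rise under stress. They cross the cell membrane and bind the glucocorticoid receptor, Nr3c1, which heat shock protein complexes hold ready in the cytoplasm. The bound receptor enters the nucleus and acts on target genes through short palindromic DNA elements and through other transcription factors. In liver this pathway is best known for driving glucose production and amino acid breakdown and for dampening inflammation. Its quickly induced targets include transcription factors (Klf9, Klf15), feedback and anti-inflammatory proteins (Fkbp5, Tsc22d3, Nfkbia) and signalling proteins (Sgk1, Errfi1).

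Values are RMA levels on the log2 scale, so 1 unit is a doubling, and a positive difference means a higher level after D-penicillamine. The 12 arrays correlated with each other at 0.987 to 0.998, their medians lay between 6.30 and 6.35, and all came from 1 chip lot and 1 scan day. The vehicle arrays were scanned at positions 1 to 4 and the treated arrays at positions 5 to 12, so scan order and treatment cannot be told apart. Vehicle rat 3 stood apart in RNA quality. The 3' minus 5' difference of the control transcripts, which grows as RNA degrades, was 1.19 in that rat and 0.43 to 0.61 in the other 11 rats. D-penicillamine rat 4 had the lowest mean correlation with its own group, 0.991. Hepatocyte markers were above the array median for 9 of 9 measured genes. In bulk liver, fewer cells of a type and less RNA per cell cannot be told apart.

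At an adjusted p under 0.05 in limma, with Benjamini-Hochberg adjustment over all probe sets, 0 of 15866 probe sets (0.0%) differed between the groups, and 0 of the 10 member probe sets. The lowest adjusted p on the arrays was 0.147, and those of the members ran from 0.614 to 0.984. At an unadjusted p under 0.05, 977 probe sets (6.16%) differed, 425 of them higher and 552 lower after the drug. Of the members, 5 of 10 were among them, and nothing is read from that count because the same values chose the list. In 91 probe sets (0.574%) the 2 groups did not overlap, and 0 of the 10 member probe sets were of that kind.

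The differences of the 10 member probe sets had a median of 0.22, against a median of -0.0025 over all probe sets. Of the members, 9 of 10 probe sets and 7 of 8 genes were on average higher after the drug, against 48.6% of all probe sets. Tsc22d1 was the exception. Nothing is read from these comparisons with all probe sets, because the same values chose the list. The sizes of the members' differences, regardless of sign, had a median of 0.30, against 0.0475 over all probe sets. The same limit holds for these sizes. On the median, the member genes also varied more within the groups. Their median SD was 0.21 in the treated and 0.29 in the vehicle rats, against 0.11 and 0.08 over all probe sets. The part of this spread in the sizes was not tested.

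**Figure D1:**
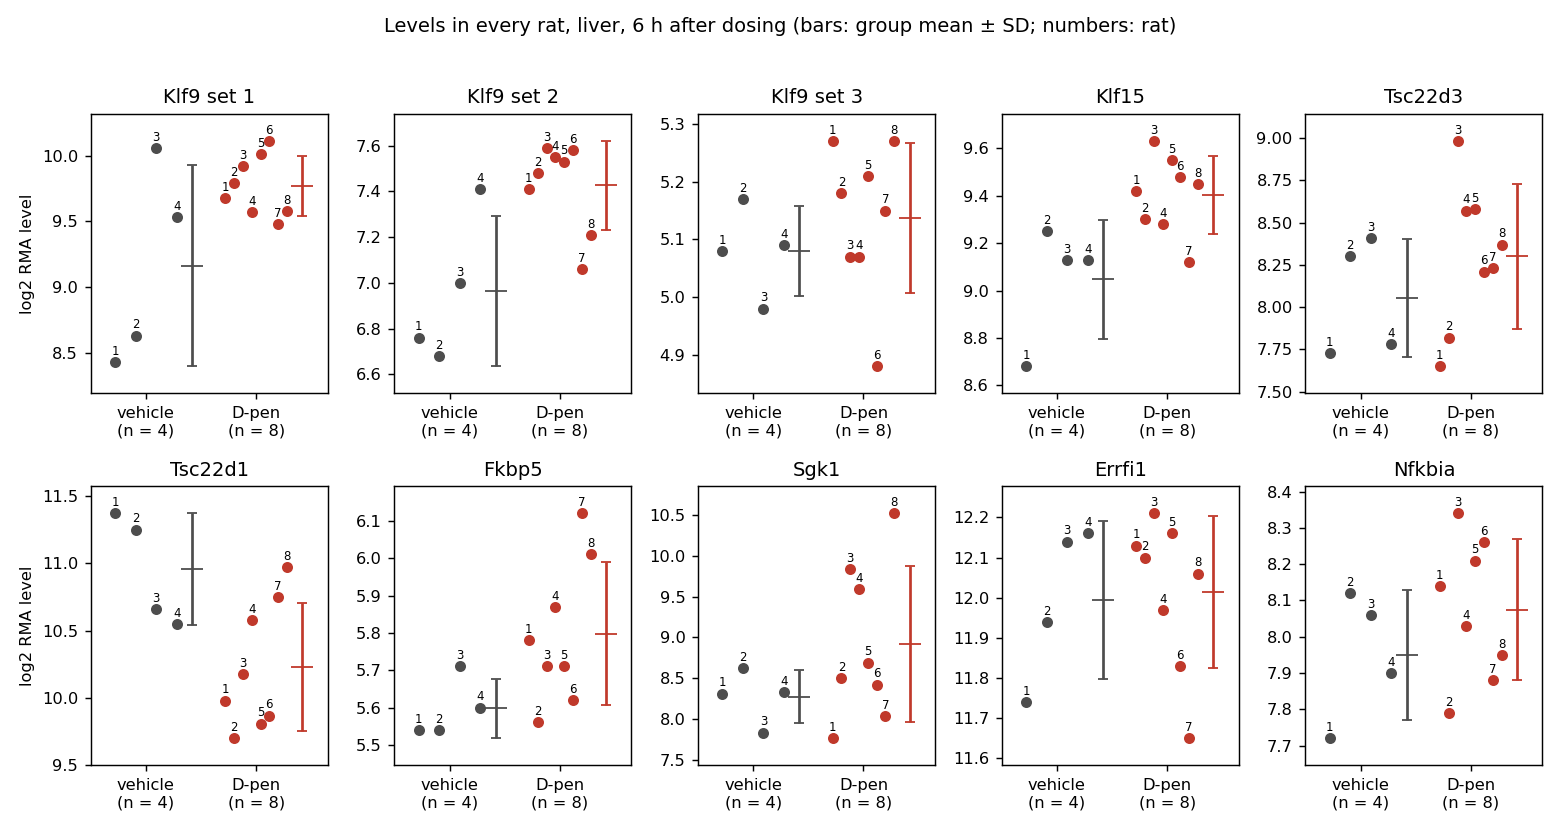
RMA level on the log2 scale (vertical axes, each with its own range) in the 4 vehicle and 8 D-penicillamine rats for the 10 member probe sets. Numbers beside the points are rat numbers, and bars are the group mean and SD. The groups overlap in every panel; Klf9 sets 1 and 2 and Klf15 sit mostly high after the drug, Tsc22d1 sits mostly low, and Sgk1 spreads from 7.76 to 10.52 in the treated rats.

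Klf9 and Klf15 are transcription factors of the Krüppel-like family that are switched on by glucocorticoids. Klf9 represses or activates genes through GC-rich promoter elements, and Klf15 promotes amino acid breakdown and glucose production in liver. The 250 bases before the annotated start of each are shown because the receptor's elements were searched for in such stretches. Klf9 lies at chr1:230126396-230126645 on the plus strand and Klf15 at chr4:124522765-124523014 on the plus strand (RefSeq, GRCr8). Capitals mark the 1 motif found, an E-box, which is the element of the circadian CLOCK and BMAL1 proteins.
Klf9: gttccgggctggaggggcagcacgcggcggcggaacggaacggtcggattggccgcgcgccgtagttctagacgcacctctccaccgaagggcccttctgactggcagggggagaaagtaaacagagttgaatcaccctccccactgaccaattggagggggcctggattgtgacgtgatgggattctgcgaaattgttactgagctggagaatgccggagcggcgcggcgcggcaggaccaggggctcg
Klf15: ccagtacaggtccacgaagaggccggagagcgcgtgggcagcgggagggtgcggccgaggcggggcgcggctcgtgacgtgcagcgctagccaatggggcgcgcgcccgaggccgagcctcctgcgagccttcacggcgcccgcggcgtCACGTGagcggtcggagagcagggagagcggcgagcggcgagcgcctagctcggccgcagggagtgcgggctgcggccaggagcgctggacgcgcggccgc

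The first Klf9 probe set, 1370209_at, read 8.43, 8.63, 10.06 and 9.53 in vehicle rats 1 to 4. In D-penicillamine rats 1 to 8 it read 9.68, 9.79, 9.92, 9.57, 10.01, 10.11, 9.48 and 9.58. All treated rats lay above vehicle rats 1 and 2, whereas vehicle rat 3 was exceeded only by D-penicillamine rat 6. The mean was 9.16 ± 0.77 (SD, n = 4) in vehicle and 9.77 ± 0.23 (SD, n = 8) after the drug, a difference of 0.605 with an SE of 0.23 and a 95% interval of 0.10 to 1.11. The vehicle rats thus spread more widely than the treated rats. The fit takes 1 spread for both groups. With the wider spread in the smaller group, this SE and interval are likely too narrow, and the interval is not read as clear of 0. The difference was 0.36 (SE 0.22) without vehicle rat 1 and 0.43 (SE 0.24) without vehicle rat 2. Without vehicle rat 3, the rat with the highest 3' minus 5' value, it was 0.90 (SE 0.19). It was 0.93 when D-penicillamine rat 4 was left out as well.

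The second Klf9 probe set, 1387882_at, read 6.76, 6.68, 7.00 and 7.41 in the vehicle rats and 7.41, 7.48, 7.59, 7.55, 7.53, 7.58, 7.06 and 7.21 in the treated rats. In this probe set 5 of the 8 treated rats exceeded the highest vehicle rat, and D-penicillamine rats 7 and 8 were the lowest of their group. The difference was 0.46 with an SE of 0.13 and a 95% interval of 0.19 to 0.73, and it lay between 0.37 and 0.61 when each rat was left out in turn. The SD was 0.33 in vehicle and 0.19 in the treated rats. This SE and interval are therefore likely too narrow as well, and the interval is not read as clear of 0. The third Klf9 probe set, 1390076_at, ran from 4.98 to 5.17 in vehicle and from 4.88 to 5.27 after the drug, with a difference of 0.06 and an SE of 0.07. That difference was 0.02 without vehicle rat 3 and 0.09 without D-penicillamine rat 6. The 3 probe sets of Klf9 thus disagree in size, and the annotation used here does not say which transcript ends they read.

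Whether probe sets of Klf9 follow each other from rat to rat is a question the group difference did not decide. Over the 8 treated rats, the first and second probe sets correlated at r = 0.74 (exact two-sided permutation p = 0.0328, 0.0985 after Benjamini-Hochberg adjustment over 3 pairs; rho = 0.67, exact p = 0.0831). Without the 2 rats farthest from the median of the first, r was 0.74. This relation missed the threshold with all 8 rats. Without D-penicillamine rat 4, r was 0.91 and the adjusted exact permutation p was 0.00476. Leaving out D-penicillamine rat 7 instead gave r = 0.63 (adjusted exact permutation p = 0.172). The third probe set correlated with the first at r = -0.51 and with the second at r = -0.48 (n = 8; adjusted exact permutation p of 0.229 for both; rho of -0.25 and -0.69).

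Klf15, probe set 1368249_at, read 8.68, 9.25, 9.13 and 9.13 in the vehicle rats. In the treated rats it read 9.42, 9.30, 9.63, 9.28, 9.55, 9.48, 9.12 and 9.45. For Klf15, 7 of the 8 treated rats lay above the highest vehicle rat, with D-penicillamine rat 7 the exception. The difference was 0.36 with an SE of 0.10 and a 95% interval of 0.14 to 0.58, and it was 0.23 without vehicle rat 1, the lowest rat. The SD was 0.25 in vehicle and 0.16 in the treated rats. As for Klf9, the SE and interval are likely too narrow, and the interval is not read as clear of 0.

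Tsc22d3 and Tsc22d1 belong to the TSC22 family of leucine zipper proteins. Tsc22d3, also called glucocorticoid-induced leucine zipper, binds NF-kB and AP-1 and blunts inflammatory transcription, and Tsc22d1 was first described as a transcript stimulated by TGF-beta. The 250 bases before 1 of the 3 annotated Tsc22d3 starts, at chrX:109065431-109065680 on the minus strand (RefSeq, GRCr8), are shown because they hold the 1 match among the members to a shortened form of the receptor's palindrome, in capitals.
Tsc22d3: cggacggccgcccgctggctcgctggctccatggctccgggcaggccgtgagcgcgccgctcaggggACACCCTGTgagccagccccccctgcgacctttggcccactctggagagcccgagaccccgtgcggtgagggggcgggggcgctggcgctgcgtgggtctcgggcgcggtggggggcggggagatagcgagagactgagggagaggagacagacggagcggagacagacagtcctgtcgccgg

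Tsc22d3, probe set 1367771_at, read 7.73, 8.30, 8.41 and 7.78 in the vehicle rats. In the treated rats it read 7.65, 7.82, 8.98, 8.57, 8.58, 8.21, 8.23 and 8.37. Only D-penicillamine rats 3, 4 and 5 exceeded all vehicle rats, and D-penicillamine rat 1 was below all of them. The difference was 0.25 with an SE of 0.21 and a 95% interval of -0.20 to 0.69, so the interval spans 0. It was 0.14 without vehicle rat 1 and 0.44 with the RNA quality value as a covariate.

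Tsc22d1, probe set 1398759_at, read 11.37, 11.25, 10.66 and 10.55 in the vehicle rats. In the treated rats it read 9.98, 9.70, 10.18, 10.58, 9.81, 9.87, 10.75 and 10.97. For Tsc22d1, 5 of the 8 treated rats were below the lowest vehicle rat, whereas D-penicillamine rats 4, 7 and 8 lay within the vehicle range. The difference was -0.73 with an SE of 0.23 and a 95% interval of -1.23 to -0.23, a level lower by 1.66-fold on average. Leaving out each rat in turn gave -0.86 to -0.59. The mean difference was thus negative for Tsc22d1 and positive for Tsc22d3, whose interval spans 0. The difference between the 2 family members was not tested.

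**Figure D2:**
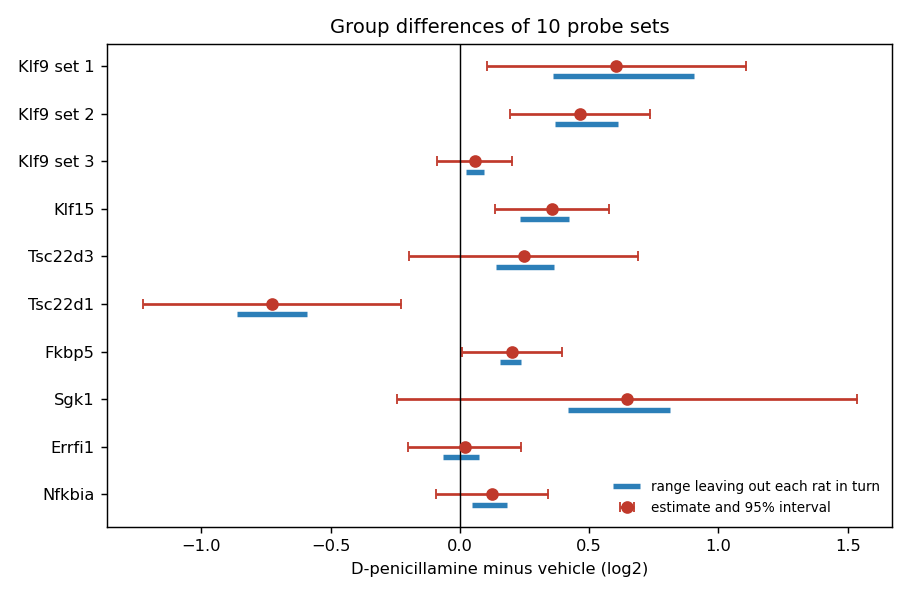
Difference in log2 level between D-penicillamine and vehicle rats for each member probe set (horizontal axis, positive when higher after the drug). Points with thin bars are the limma estimate and its 95% interval over 12 rats, and thick blue bars are the range when each rat is left out in turn. The intervals of Klf9 sets 1 and 2, Klf15, Fkbp5 and Tsc22d1 lie on 1 side of 0, with no adjustment for the number of probe sets. The fit takes 1 spread for both groups. The intervals of Klf9 sets 1 and 2 and Klf15, each with a wider vehicle spread, are likely too narrow. Those intervals are not read as clear of 0.

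Fkbp5 is a cochaperone of Hsp90 that lowers the receptor's affinity for its hormone and so closes a short feedback loop. Its probe set, 1388901_at, read 5.54, 5.54, 5.71 and 5.60 in the vehicle rats and 5.78, 5.56, 5.71, 5.87, 5.71, 5.62, 6.12 and 6.01 in the treated rats. D-penicillamine rats 1, 4, 7 and 8 exceeded all vehicle rats, and the other 4 lay within the vehicle range. The difference was 0.20 with an SE of 0.09 and a 95% interval of 0.01 to 0.39. It lay between 0.15 and 0.24 when each rat was left out in turn.

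Nfkbia encodes the inhibitor that holds NF-kB in the cytoplasm, and it is induced both by the receptor and by NF-kB itself. Its probe set, 1389538_at, read 7.72, 8.12, 8.06 and 7.90 in the vehicle rats and 8.14, 7.79, 8.34, 8.03, 8.21, 8.26, 7.88 and 7.95 in the treated rats. For Nfkbia, 4 of the 8 treated rats exceeded the highest vehicle rat and no treated rat was below the lowest. The difference was 0.125 with an SE of 0.10 and a 95% interval of -0.09 to 0.34, and it was 0.05 without vehicle rat 1.

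Sgk1 is a kinase that regulates ion channels and transporters and acts beside Akt in growth factor signalling. Its probe set, 1367802_at, read 8.31, 8.62, 7.83 and 8.33 in the vehicle rats and 7.76, 8.50, 9.84, 9.59, 8.69, 8.42, 8.03 and 10.52 in the treated rats. D-penicillamine rats 3, 4 and 8 stood more than 0.9 above every vehicle rat, rat 5 exceeded them narrowly, and rat 1 was the lowest of all 12. The treated rats spread over 2.76, or 6.77-fold, and their SD was 0.96 against 0.33 in vehicle. For comparison, the median SD over all probe sets was 0.11 in the treated and 0.08 in the vehicle rats. The mean difference was 0.65 with an SE of 0.42 and a 95% interval of -0.24 to 1.53, so the groups are not separated. It was 0.42 without D-penicillamine rat 8 and 0.40 with both vehicle rat 3 and D-penicillamine rat 4 left out.

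Errfi1 is an adaptor protein that inhibits the EGF receptor and is induced by growth factors and by glucocorticoids. Its probe set, 1373093_at, read 11.74, 11.94, 12.14 and 12.16 in the vehicle rats and 12.13, 12.10, 12.21, 11.97, 12.16, 11.83, 11.65 and 12.06 in the treated rats. The groups overlapped almost wholly. The difference was 0.02 with an SE of 0.10 and a 95% interval of -0.20 to 0.24, and leaving out each rat in turn gave -0.07 to 0.07, so no direction can be given.

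**Figure D3:**
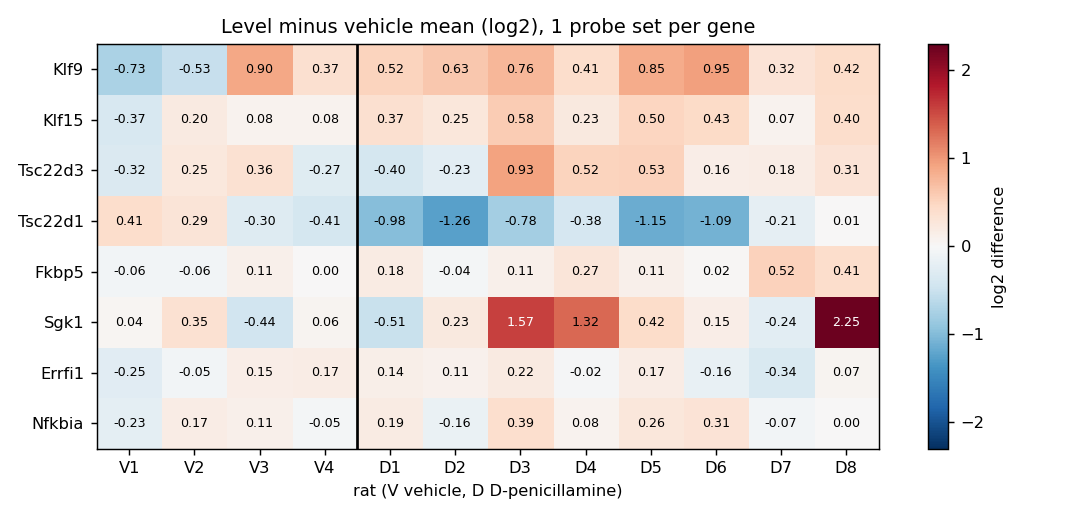
Level minus the vehicle mean on the log2 scale (colour and printed value) for 1 probe set per member gene (rows) in the 4 vehicle rats V1 to V4 and the 8 D-penicillamine rats D1 to D8 (columns). Sgk1 reaches 2.25 in D8, 1.57 in D3 and 1.32 in D4, and Tsc22d1 is lowest in D2, at -1.26.

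The rats did not line up in 1 order. The map of levels by rat shows that D-penicillamine rat 2 had the lowest Tsc22d1 and the lowest treated Fkbp5, and rat 7 had the highest Fkbp5 with the lowest Klf15 and Errfi1 of the treated rats. Rat 8 had the highest Sgk1 and Tsc22d1 of the treated rats. Vehicle rats differed too. Klf9 was low and Tsc22d1 high in vehicle rats 1 and 2, and vehicle rats 3 and 4 had higher Klf9 and lower Tsc22d1.

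How the members vary with each other among rats given the same dose was tested within the 8 treated rats, a contrast that the choice of the members did not use. For Klf9 the first probe set, the brightest of its 3, was taken. Of 28 pairs, 0 passed an adjusted p of 0.05 in the exact permutation test of Pearson's r, and 6 had an unadjusted p under 0.05. The strongest pair was Fkbp5 with Tsc22d1 at r = 0.91 (exact p = 0.00198, adjusted p = 0.0556; rho = 0.90, exact p = 0.00456, adjusted p = 0.128), with r = 0.84 without the 2 rats farthest from the median of Fkbp5. Rats 7, 8 and 4 were the highest for both genes and rats 2 and 6 were among the lowest. After removing a straight line on the RNA quality value from each gene, r was 0.95 and the adjusted permutation p was 0.0319. That p is approximate and may be too small, because residuals on a shared line are not freely exchangeable between rats.

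Klf9 had a negative r with both genes of that pair. It correlated with Fkbp5 at r = -0.80 (exact permutation p = 0.0178, adjusted p = 0.166; rho = -0.83, exact p = 0.0163), and r was -0.63 without the 2 farthest rats. With Tsc22d1 it correlated at r = -0.76 (exact permutation p = 0.0365, adjusted p = 0.204; rho = -0.71, exact p = 0.0576), and r was -0.71 without the 2 farthest rats. The pairs among Klf9, Klf15, Nfkbia and Errfi1 all had positive r. Klf15 correlated with Nfkbia at r = 0.81 (exact permutation p = 0.0159, adjusted p = 0.166; rho = 0.81, exact p = 0.0218; r = 0.70 without the 2 farthest rats). Its r was 0.73 with Klf9 (exact permutation p = 0.0428, adjusted p = 0.204; rho = 0.81, exact p = 0.0218; r = 0.61 without the 2 farthest rats). With Errfi1 its r was 0.72 (exact permutation p = 0.0437, adjusted p = 0.204; rho = 0.69, exact p = 0.0694; r = 0.83 without the 2 farthest rats), and this was 0.38 without D-penicillamine rat 7. None of these 5 pairs passed the adjustment.

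Sgk1 and Tsc22d3, both among the 3 highest treated values in D-penicillamine rats 3 and 4, correlated at r = 0.66 (exact permutation p = 0.0771, adjusted p = 0.270; rho = 0.74, exact p = 0.0458; r = 0.72 without the 2 farthest rats). All treated arrays share their processing, and levels of genes in 1 rat share its RNA sample and array. Correlations of the 8 genes with the RNA quality value and with scan position were computed within the treated rats as well. Of these 16 relations, 0 passed in the exact permutation test, 0 had an unadjusted p under 0.05, and the lowest adjusted p was 0.698. The highest of them was that of Tsc22d3 with the RNA quality value, at r = 0.58 (exact permutation p = 0.133, n = 8; rho = 0.40, exact p = 0.327; r = 0.31 without the 2 farthest rats). Without the 2 rats farthest from the median of the RNA quality value, r with that value was larger for other genes, at 0.78 for Klf9, 0.72 for Nfkbia, 0.60 for Klf15, -0.70 for Fkbp5 and -0.55 for Tsc22d1. With all 8 rats these were 0.32, 0.33, 0.16, -0.32 and -0.06. The part of RNA quality in the member pairs was tested only by the straight-line adjustment.

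**Figure D4:**
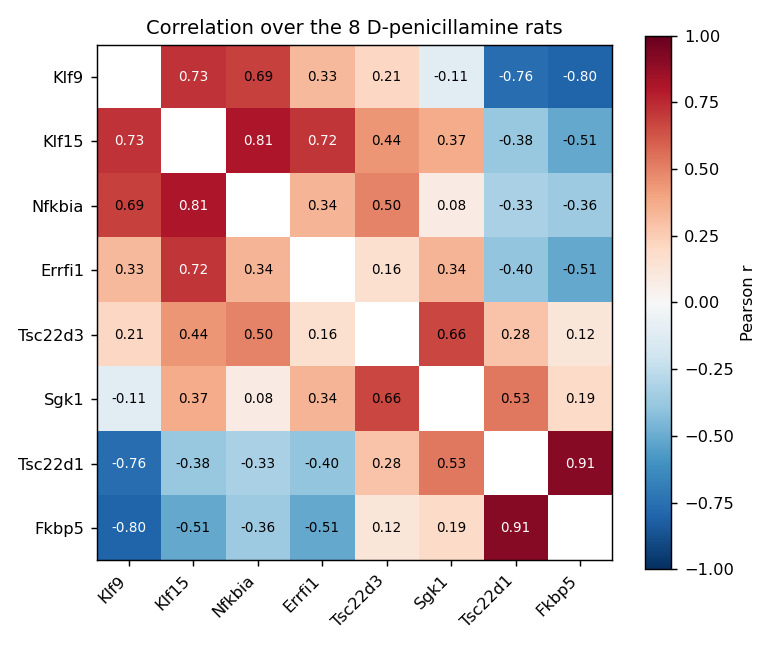
Pearson's r (colour and printed value) between member genes over the 8 D-penicillamine rats, 1 probe set per gene. Fkbp5 and Tsc22d1 are positively correlated (0.91) and both have negative r with Klf9 (-0.80 and -0.76), and Klf15 has r of 0.72 to 0.81 with Klf9, Nfkbia and Errfi1.

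The genes whose pattern was most like each member were sought among 6803 named probe sets, by Pearson's r over the 12 arrays after subtracting each group's mean. These values describe the arrays and carry no test. Each is among the highest of 6803, so a large r can arise from the search alone. Sgk1 was most like Slc25a25, a mitochondrial carrier of adenine nucleotides, at r = 0.92, and Ccdc51 at 0.89. Klf9 was most like Aff1 at 0.89 and Trak1 at 0.87, and Klf15 was most like Edrf1 at 0.88 and Trim11 at 0.87. Tsc22d1 was most like Mvk, the mevalonate kinase of sterol synthesis, at 0.89 and Coprs at 0.88. For Fkbp5 these were Gpr137 at 0.90 and Ndufaf3 at 0.88, and for Tsc22d3 Baiap2 and Rasgef1b, both at 0.88. For Errfi1 they were Arid3b at 0.89 and Atpsckmt at 0.85, and for Nfkbia Mterf1 at 0.83 and Scaf4 at 0.81. No gene appeared for more than 1 member.

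The rest of the pathway was described from 4 lists, 1 probe set per gene, and no gene of any list passed an adjusted p of 0.05. At an unadjusted p under 0.05 in limma, the share over all probe sets was 6.16%. The lists were chosen with earlier results of these data known, so nothing is read from their counts. Among the receptor and its chaperones, 10 of 12 listed genes were measured, 4 were higher and 6 lower on average, and their median difference was -0.02. Nr3c1, the receptor itself, was the 1 gene with an unadjusted p under 0.05. It read 7.58, 7.62, 7.84 and 7.60 in the vehicle rats and 7.58, 7.62, 7.52, 7.05, 7.53, 7.47, 7.43 and 7.44 in the treated rats. For the receptor, 6 of the 8 treated rats were below the lowest vehicle rat, with D-penicillamine rat 4 farthest. The difference was -0.205 with an SE of 0.09 and an adjusted p of 0.781 in limma. It was -0.145 without vehicle rat 3, the highest rat, and -0.23 without vehicle rat 1. A second, dimmer probe set of Nr3c1 differed by 0.01. Hsp90ab1, the Hsp90 that holds the unbound receptor, differed by 0.09 (SE 0.06) in 1 probe set, or 0.02 without vehicle rat 3, and by -0.12 (SE 0.07) in another. Fkbp4, the cochaperone that competes with Fkbp5, differed by -0.02, or by -0.06 without vehicle rat 3 and 0.002 without vehicle rat 2. Dnajb1 and Stip1 serve Hsp70 and Hsp90. Dnajb1 differed by 0.16, or 0.02 without vehicle rat 3 and 0.25 without vehicle rat 4. Stip1 differed by 0.01, or -0.02 without vehicle rat 3 and 0.05 without vehicle rat 4, so neither it nor Fkbp4 has a stable sign. Bag1, another Hsp70 cochaperone, differed by -0.09 (-0.06 without vehicle rat 3), and the mineralocorticoid receptor Nr3c2 by -0.05 (-0.03 without D-penicillamine rat 4).

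Among the coregulators, 10 of 12 were measured, 6 higher and 4 lower on average, with a median difference of 0.02. The coactivators Ncoa1 (-0.21), Crebbp (-0.145) and Med1 (-0.14) had an unadjusted p under 0.05, all lower, and 0 passed the adjustment in limma. The share over all probe sets at that unadjusted p was 6.16%. A second probe set of each differed by -0.01, 0.05 and 0.06. Those of Ncoa1 and Crebbp had mean levels of 4.72 and 5.89, below the array median, and that of Med1 had 6.60. In the first probe set the difference of Ncoa1 was -0.12 without vehicle rat 3. Ncoa2 (0.09), Ncoa3 (0.09) and Ppargc1a (0.07) were the largest on the positive side, and each rested partly on 1 rat. Without vehicle rat 3 the differences were 0.025 for Ncoa2 and 0.05 for Ncoa3, and without vehicle rat 1 they were 0.15 for Ncoa2 and 0.13 for Ppargc1a. Ppargc1a differed by 0.04 without D-penicillamine rat 4.

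Genes that set the hormone's supply in liver numbered 6 measured of 8, of which 5 were higher and 1 lower on average, with a median of 0.085. Hsd11b1, the enzyme that regenerates active glucocorticoid inside hepatocytes, read 12.04, 12.11, 12.20 and 12.03 in the vehicle rats and 12.17, 12.30, 12.14, 12.15, 12.31, 12.38, 12.30 and 12.15 in the treated rats. The groups overlapped through vehicle rat 3. Its difference was 0.14 with an SE of 0.06 (adjusted p = 0.754 in limma) and was 0.18 without vehicle rat 3. H6pd, which supplies that enzyme with NADPH, differed by 0.135, or 0.08 without vehicle rat 1 and 0.22 without vehicle rat 3. Abcb1a, an efflux pump that accepts steroids, differed by 0.095, or by 0.02 in a second, dimmer probe set. Serpina6, the plasma carrier of the hormone, differed by 0.07, or 0.01 without D-penicillamine rat 8 and 0.13 without D-penicillamine rat 4, and Hsd11b2, which inactivates the hormone, by -0.12.

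Of 40 other genes known to be induced by glucocorticoids, 37 were measured, 20 higher and 17 lower on average, with a median difference of 0.01. That is close to the median of all probe sets, -0.0025. Unadjusted p was under 0.05 in limma for 2 higher and 3 lower genes, beside 6.16% of all probe sets. Il6r, the interleukin-6 receptor, read 7.71, 8.04, 8.47 and 8.11 in the vehicle rats and 8.26, 8.41, 8.72, 8.80, 8.74, 8.94, 8.64 and 8.76 in the treated rats. Only vehicle rat 3 reached into the treated range. Its difference was 0.58 with an SE of 0.13 (adjusted p = 0.556 in limma). Mt1, a metal-binding metallothionein that glucocorticoids, zinc and copper induce, ran from 6.94 to 7.32 in vehicle and from 6.03 to 7.24 after the drug, with D-penicillamine rat 6 the 1 treated rat inside the vehicle range. Its difference was -0.64 with an SE of 0.17 (adjusted p = 0.614 in limma), and that of its sister gene Mt2A was -0.58 with an SE of 0.27. Angptl4, an inhibitor of lipoprotein lipase, differed by -0.58 with an SE of 0.24.

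None of the further targets with a known role in liver that follow passed the adjusted test. Tat, the tyrosine aminotransferase long used as a readout of glucocorticoid action in rat liver, read 9.83, 10.71, 9.13 and 10.12 in the vehicle rats and had a median of 10.18 between 9.49 and 10.95 in the treated rats. Its difference of 0.235 had an SE of 0.29 and was -0.04 without vehicle rat 3 and 0.49 without vehicle rat 2. The clock gene Per1 differed by 0.04 (0.02 without D-penicillamine rat 4, 0.06 without D-penicillamine rat 2), the transcription factor Cebpd by 0.02 (-0.01 without vehicle rat 3, 0.05 without vehicle rat 1) and Pdk4, which shuts pyruvate out of oxidation, by 0.05, with the value for Pdk4 at -0.15 without vehicle rat 3 and 0.18 without vehicle rat 1. Lpin1, a phosphatidate phosphatase induced in fasting, differed by 0.34 (SE 0.36), and by 0.06 without vehicle rat 1 and 0.795 without vehicle rat 3. Dusp1, a phosphatase that turns off MAP kinases, differed by 0.23 (SE 0.24) in 1 probe set, or -0.05 without vehicle rat 1 and 0.35 without D-penicillamine rat 4, and by 0.50 (SE 0.23) in the other, which is dimmer. Cebpb, a transcription factor of acute phase genes, differed by 0.32 (SE 0.19).

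**Figure D5:**
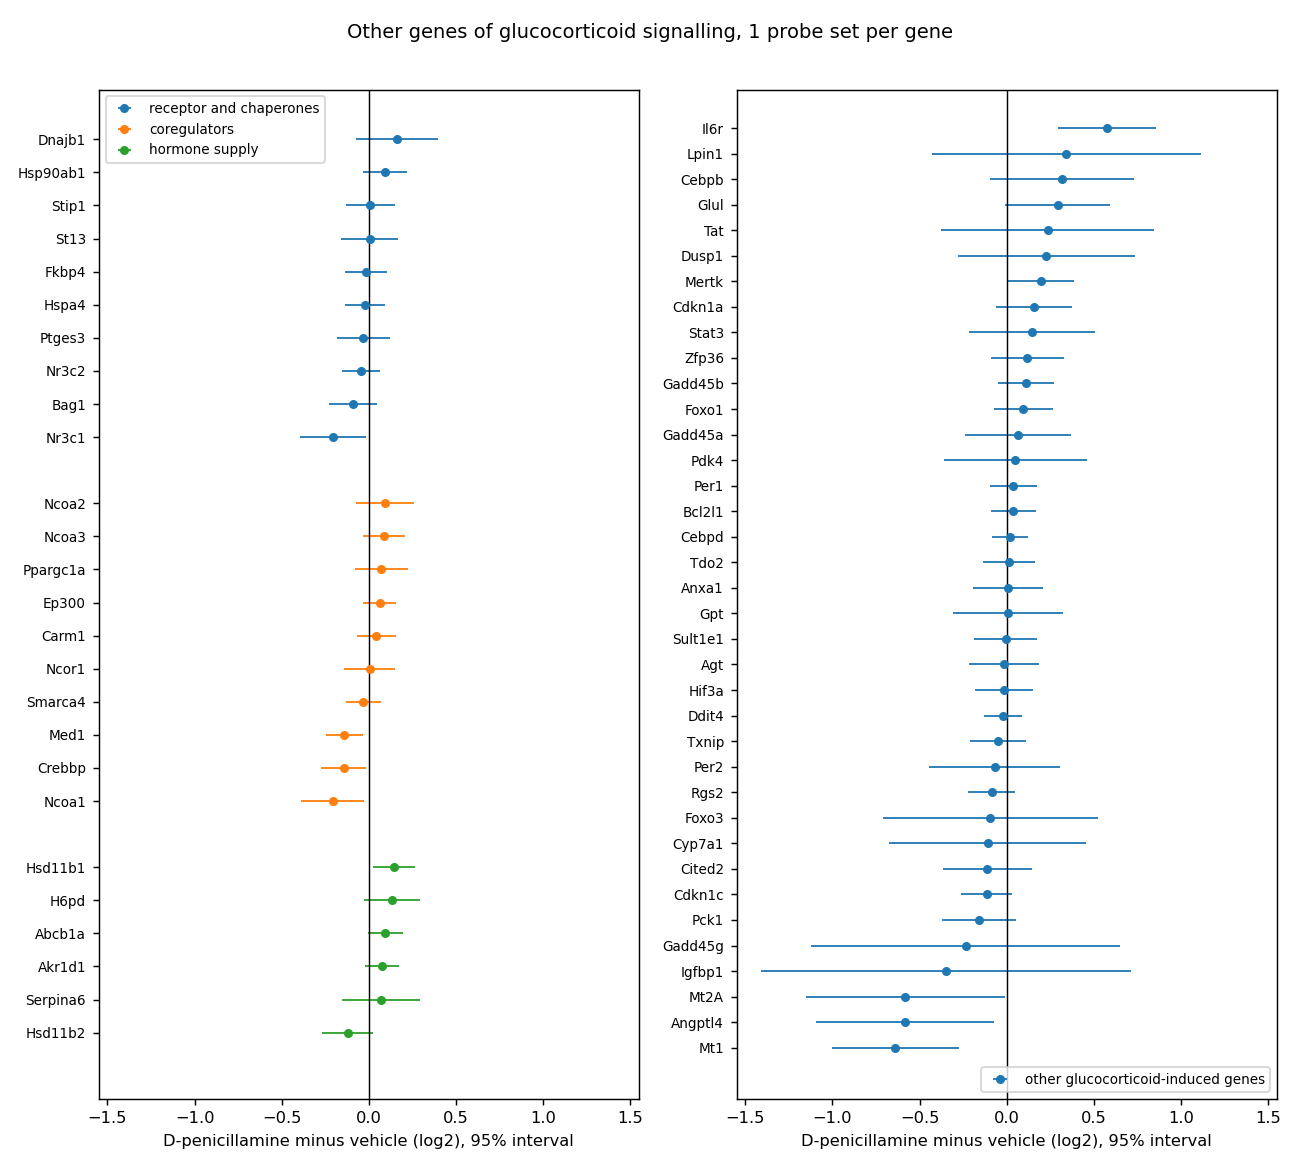
Difference in log2 level between D-penicillamine and vehicle rats with its 95% interval (horizontal axes, positive when higher after the drug), for the other measured genes of glucocorticoid signalling, 1 probe set per gene, grouped by list. No gene passed an adjusted p of 0.05, and the targets on the right scatter on both sides of 0, from -0.64 for Mt1 to 0.58 for Il6r.

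Markers of other cells in whole liver were looked at beside the members. As background, 6.16% of all probe sets had an unadjusted p under 0.05 in limma. For Kupffer cells and macrophages, in which glucocorticoids also act, 7 of 10 markers were measured, all 7 were higher on average and 3 had an unadjusted p under 0.05, with 0 passing the adjustment in limma. Their mean level ran from 8.24 to 8.47 in vehicle and from 8.34 to 8.53 in the treated rats. For neutrophils 2 of 5 were measured, both below the median level of all probe sets, with a mean of 4.54 to 4.72 in vehicle and 4.59 to 5.20 in the treated rats, highest in D-penicillamine rat 4. In the treated rats S100a9 ran from 5.28 to 6.36 and S100a8 only from 3.86 to 4.04. The spread of this mean thus came mostly from S100a9. Of the T, B and NK cell markers 4 of 5 measured lay below the array median. The 4 measured endothelial markers were all lower on average, with a mean of 7.39 to 7.82 in vehicle, highest in vehicle rat 3, and 7.39 to 7.56 in the treated rats. Of 8 stellate cell and fibroblast markers, all measured, 3 were higher and 5 lower on average, with a mean of 6.57 to 6.87 in vehicle and 6.59 to 6.86 in the treated rats. The matrix protein gene Lum (-0.20, SE 0.06, adjusted p = 0.693 in limma) and the actin gene Acta2 (-0.18, SE 0.08, adjusted p = 0.781 in limma) had an unadjusted p under 0.05. The mean of Lum was only 4.39 in vehicle and 4.19 in the treated rats, below the array median. Of 3 cholangiocyte markers measured of 5, 1 was higher and 2 lower, with a mean of 5.66 to 6.06 in vehicle and 5.75 to 5.90 in the treated rats, and the keratin gene Krt7 (0.15, SE 0.06, adjusted p = 0.781 in limma) had an unadjusted p under 0.05. Lum, Acta2 and Krt7 were chosen after their values were seen. Of 6 markers of adrenal or pancreas tissue, 5 lay below the median level, and the mean of all 6 was 5.82 to 5.89 in vehicle and 5.73 to 5.88 in the treated rats. The exception, Cela1, also chosen after its value was seen, had a high mean of 10.475 in vehicle and 10.33 in the treated rats. The part of these cell types in the members' differences was not tested.

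The promoters of the 8 measured genes were searched for 3 motifs on both strands, from 250 bases before to 50 after each of 13 annotated starts. These windows come from RefSeq (GRCr8), and the same search ran over all 33469 promoters of that table. The receptor's hexamer AGAACA, 1 arm of its palindrome, was found in 0 of 13 windows, against 20.7% of all promoters. Its shortened palindrome ACANNNTGT, in which N is any base, was found in 1 of 13, in the Tsc22d3 stretch printed above with its first base 183 bases before the start, against 6.86% of all promoters. The E-box CACGTG was found in 1 of 13, in Klf15 with its first base 101 bases before the start, against 6.42%. The windows cover only the bases next to each start, and a match of letters describes the sequence, not binding.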

How the data were processed

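Liver RNA of 12 rats was measured on 12 arrays, 4 from vehicle and 8 from D-penicillamine rats, and groups and rat numbers come from the labels. The deposited log2 values were made by the authors with RMA, per the submitters' processing notes, whose version is not given in the sources used here. RMA normalizes arrays to a common distribution and gives no detection call, so low signals stayed in, and 12 arrays set the limit on precision.

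Of 15923 probe sets, 57 array controls were left out. Symbols come from the platform annotation, updated through gene identifiers to GRCr8, and 12783 probe sets had 1 symbol, 312 several and 2771 none. The members, lists and motifs were chosen with earlier results of these data known. The comparison was fitted in limma 3.58.1 (R 4.3.3; lmFit, then eBayes at its defaults) on a group term, two-sided, with Benjamini-Hochberg adjustment over 15866 probe sets and a threshold of 0.05, and was tested on simulated data. A gene with several probe sets was described by the one with the highest mean. Correlations used exact two-sided permutation tests over 8 rats (scipy 1.17.1).

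Named were all members, 11 pathway genes taken for their role (Nr3c1, Hsp90ab1, Fkbp4, Hsd11b1, Serpina6, Tat, Per1, Dusp1, Cebpd, Lpin1 and Pdk4), up to 3 genes per direction with the largest difference in each pathway list, and the 2 genes most like each member. Alternatives left out rats or changed array weights, variance model, normalization, filter, RNA quality term and pairing. Vehicle rats 1 to 4 and D-penicillamine rats 1 to 4 share numbers, and the correlations of their deviations from the group means were 0.25, -0.16, 0.14 and -0.13, so the numbers were not taken to pair rats.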

Additional observations from a re-analysis of the deposited data

How the results depend on the processing

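The count of 0 probe sets past an adjusted p of 0.05 in limma was 0 to 1 when each rat was left out in turn. The 1 was Dbp, without D-penicillamine rat 1 (adjusted p = 0.00385). It was 2, Dbp and Inhba, with array weights (lowest adjusted p = 0.0149), and both names were chosen after their values were seen. With the rat number as a replicate block over rats 1 to 4 of each group the count was 0, with 934 probe sets at an unadjusted p under 0.05, and the difference was 0.13 for Fkbp5 and 0.11 for Errfi1. No member passed in any of 19 settings, in which the lowest adjusted p was 0.238. Of 190 member differences 187 kept their sign, and the other 3 were of Errfi1. Member pairs past the threshold numbered 0 to 1 when each treated rat was left out. The 1 was Fkbp5 with Nfkbia without D-penicillamine rat 2 (adjusted exact permutation p = 0.0444). With all 8 rats that pair had r = -0.36 (adjusted exact permutation p = 0.581). Its r was 0.22 without the 2 rats farthest from the median of Fkbp5, so its sign was not stable. With residuals on the RNA quality value there was 1, Fkbp5 with Tsc22d1, by a permutation p that is only approximate there. Same-gene pairs past it numbered 0 to 1, the 1 being the first 2 Klf9 probe sets without D-penicillamine rat 4. For the relations with RNA quality and scan position, ranks and leaving out each treated rat, both added after seeing the data, also gave 0 past the threshold. The causes of these changes were not tested. Signal limits what can be said of Fkbp5 and of the third Klf9 probe set, whose levels lay below the median level of all probe sets, 6.33, and RMA values do not show whether such signals exceed background. Among the other named genes, the same holds for Nr3c2, Ncoa2, Ppargc1a, Abcb1a, Cebpd, Lum and Krt7.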
